A study of Mus musculus with 6 samples.

Results

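The 8 genes described here encode the activity-induced transcription factors Egr1, Egr2, Egr3 and Egr4, the orphan nuclear receptors Nr4a1, Nr4a2 and Nr4a3, and Npas4. They were taken by gene name from the 23235 genes of the tables deposited for the series, each was found once, and all 8 had been tested by the authors in both comparisons. The groups were HDAC2 knockdown, Sp3 knockdown and control, with 2 RNA sequencing libraries each. All of them were primary mouse cortical and hippocampal neurons from embryos at day 15, kept for 17 days in culture, given 1 uM of the mitotic inhibitor AraC on day 5 and transduced on day 12 with lentivirus that expressed short hairpin RNA. HDAC2 is a class I histone deacetylase and Sp3 a zinc finger factor that binds GC-rich promoter elements, and the study asks whether the pair act on a common set of genes. The labels give the control treatment only as control, and neither the hairpin sequences nor the number of hairpins. The deposited tables hold 1 FPKM per gene and group (fragments scaled to transcript length and to all mapped fragments), so no value per library, no spread within a group and no read depth can be given. The labels do not state that replicate libraries were grown as separate cultures, and the p-values may therefore measure technical spread.

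Neuronal firing opens calcium entry, calcium-dependent and MAP kinases then act on factors already bound to promoters, such as CREB and SRF, and the first genes to be transcribed need no new protein. Many of these first genes encode transcription factors, which pass the signal on to a later wave of synaptic genes. The Egr proteins bind GC-rich sites through zinc fingers, the Nr4a proteins are nuclear receptors that act without a known natural ligand, and Npas4, a bHLH-PAS protein that pairs with Arnt2, is known for its selective response to calcium in neurons and for its part in inhibitory synapse formation. In cultures that are not stimulated, their RNA is known to follow spontaneous network activity.

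The promoters are shown because CREB, SRF and Sp factors are known to act on genes of this kind through short elements near the start. RefSeq promoter sequences (build GRCm38.p6) were at hand for 6 of the 8 genes, and those of 5 are printed as the 250 bases before the annotated start, 5′ to 3′ on the gene's strand. Capitals mark, on either strand, the letters TGACG (the core of the element bound by CREB), GGGCGG (the GC box bound by Sp factors), GCGNGGGCG (the Egr site) and the CArG box bound by SRF. The CArG box was sought as CC, then 6 letters A or T, then GG. No mismatch was allowed, so near matches to any of these are not marked or counted. Some matches overlap, so that a capital run in Nr4a1 or Nr4a2 can hold more than 1 of them.
Npas4, chr19:4989972-4990221, minus strand: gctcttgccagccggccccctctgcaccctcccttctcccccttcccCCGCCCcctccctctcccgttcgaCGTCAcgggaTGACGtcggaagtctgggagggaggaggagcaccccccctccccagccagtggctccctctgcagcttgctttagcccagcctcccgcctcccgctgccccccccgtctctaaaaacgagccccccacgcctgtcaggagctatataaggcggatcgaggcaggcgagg
Egr2, chr10:67537619-67537868, plus strand: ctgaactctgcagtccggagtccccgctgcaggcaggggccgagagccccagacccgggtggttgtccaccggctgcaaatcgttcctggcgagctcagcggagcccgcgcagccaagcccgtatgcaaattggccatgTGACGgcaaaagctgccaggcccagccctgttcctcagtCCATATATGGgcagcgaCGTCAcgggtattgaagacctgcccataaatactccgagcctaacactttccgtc
Egr4, chr6:85513590-85513839, minus strand: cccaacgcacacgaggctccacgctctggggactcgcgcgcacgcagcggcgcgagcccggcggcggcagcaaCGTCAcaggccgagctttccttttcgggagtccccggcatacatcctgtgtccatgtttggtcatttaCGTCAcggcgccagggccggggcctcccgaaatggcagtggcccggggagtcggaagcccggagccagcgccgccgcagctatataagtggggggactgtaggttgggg
Nr4a1, chr15:101266596-101266845, plus strand: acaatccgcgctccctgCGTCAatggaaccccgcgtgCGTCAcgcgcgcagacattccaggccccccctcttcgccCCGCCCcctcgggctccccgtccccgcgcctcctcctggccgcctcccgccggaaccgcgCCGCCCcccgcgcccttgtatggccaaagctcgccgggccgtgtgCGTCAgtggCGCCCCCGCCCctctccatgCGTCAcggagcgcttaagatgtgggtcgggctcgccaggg
Nr4a2, chr2:57124004-57124253, minus strand: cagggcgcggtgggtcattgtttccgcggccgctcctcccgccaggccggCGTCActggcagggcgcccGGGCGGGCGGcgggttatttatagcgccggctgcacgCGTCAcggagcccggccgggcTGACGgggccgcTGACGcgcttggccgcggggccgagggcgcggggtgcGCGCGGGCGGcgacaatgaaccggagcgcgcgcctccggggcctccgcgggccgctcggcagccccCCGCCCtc
TGACG was present in all 6 promoters matched, with 2 copies each in Npas4, Egr2 and Egr4 and 4 copies each in Nr4a1, Nr4a2 and Nr4a3, whereas 17.8% of all 32851 promoter windows of this length held it. The 6 windows were 61.6% to 80.0% G and C, against a median of 52.4% over all windows, and no correction was made for this. GGGCGG was present in 4 of the 6, with 1 copy in Npas4, 3 in Nr4a1, 4 in Nr4a2 and 1 in Nr4a3, against 32.7% of all windows. An exact CArG box lay 72 bases before the start of Egr2 and in none of the other 5 windows, against 1.47% of all windows. GCGNGGGCG occurred once each in Nr4a1 and Nr4a2, against 4.70% of all windows. For Egr2 the start was the 1 of 5 annotated whose distance to the gene's end, 4320 bases, equals the length of the deposited locus. For Nr4a3 that distance is 41143 bases against a deposited locus of 32105 bases, and for Nr4a2 it is 17174 against 16778 bases, so neither window, nor the copies counted in it, may belong to the start measured here. For Egr4 the distance is 2469 against 2421 bases. A match describes letters in the window and not a bound site.

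Both knockdowns can be read from the targeted genes. Hdac2 was at 12.3 FPKM in HDAC2 knockdown, 38.8 in Sp3 knockdown and 49.4 in control in the authors' deposited tables. Sp3 was at 26.7 FPKM in HDAC2 knockdown, 5.82 in Sp3 knockdown and 15.5 in control in the same authors' deposited tables. Each knockdown also differed from control in the other target by the authors' deposited q-values. Sp3 was higher in HDAC2 knockdown (q listed as 0) and Hdac2 lower in Sp3 knockdown (q = 0.00598). The whole distribution was shifted, by a median log2 fold change of 0.32 in HDAC2 knockdown and -0.13 in Sp3 knockdown over genes of at least 1 FPKM. Changes are therefore given on a log2 scale relative to that median (centred), with the standard error implied by the authors' test statistic. A centred change passed where a normal test across all genes of a table, with Benjamini-Hochberg adjustment, gave an adjusted p under 0.05. These p-values are not printed, since the deposited group values allow no exact test beside them. The centred change of Sp3 in HDAC2 knockdown was 0.47 ± 0.089. That of Hdac2 in Sp3 knockdown was -0.22 ± 0.11, which did not pass, so its call rests on the uncentred values. A true rise or fall of most genes would be removed by centring and cannot be told apart from scaling.

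In the control cultures the 8 genes were all expressed and spanned a wide range of levels per transcript length. Egr1 stood highest at 74.1 FPKM, above 96.3% of all genes in the table, followed by Nr4a1 at 34.0 and Npas4 at 29.4 in the authors' deposited values. Egr3 (20.3 FPKM), Egr4 (19.0), Egr2 (15.1) and Nr4a3 (14.99) formed the middle, and Nr4a2 was lowest at 2.33 in the authors' deposited values. Without values per library it cannot be said whether neighbours in this order differ beyond their spread. Summed over the 8 genes the level was 80.2 FPKM in HDAC2 knockdown, 145 in Sp3 knockdown and 209 in control. The order itself differed between groups. Npas4 was the sixth of the 8 in HDAC2 knockdown and held 5.02% of their sum, the fourth in Sp3 knockdown with 11.5%, and the third in control with 14.1%. Nr4a3, by contrast, held 14.1% of the sum in HDAC2 knockdown, 11.1% in Sp3 knockdown and 7.16% in control.

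**Figure D1:**
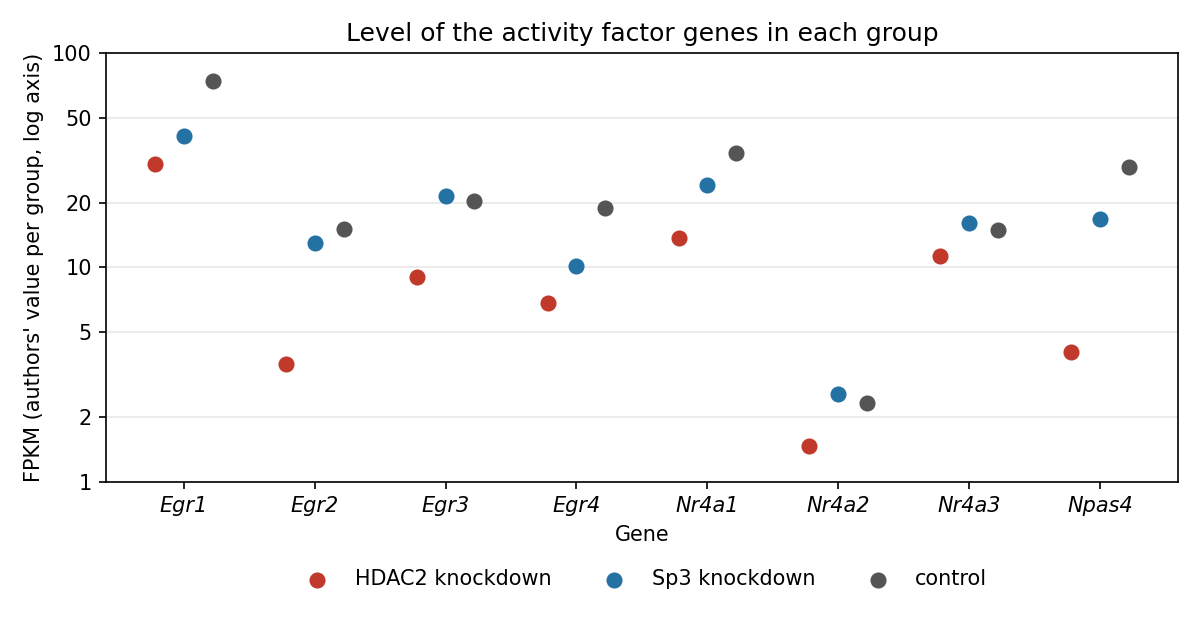
FPKM of each gene (log axis, 1 point per group as the authors give it) in HDAC2 knockdown, Sp3 knockdown and control. The HDAC2 knockdown point is the lowest of the 3 for every gene, and the Sp3 knockdown point lies below control for Egr1, Egr2, Egr4, Nr4a1 and Npas4.

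In HDAC2 knockdown nearly the whole group was lower. The authors' deposited table called 7 of the 8 genes lower and 0 higher (q under 0.05), where 3.6% of all tested genes were called lower and 24.6% higher. After centring all 8 were lower, against 7.59% of all genes (10.2% were higher). With a t distribution of 2 degrees of freedom in place of the normal one, no gene of any comparison passed the adjustment, so every centred call here rests on the normal reference that the authors' statistic uses. The median centred change of the 8 was -1.62, against -0.0044 over all genes with a standard error.

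Npas4 (chromosome 19, 4984354 to 4989971, all positions in build mm9 and as written in the files) fell furthest, to 4.02 FPKM in HDAC2 knockdown against 29.4 in control (q listed as 0, authors' deposited table). This left 13.7% of the control level. The centred change of -3.19 ± 0.26 ranked 8 from the lowest among tested genes with FPKM above 0 in both groups. Egr2 (chromosome 10, 67000616 to 67004936), which is also the factor of Schwann cell myelination and hindbrain patterning, was next, at 3.56 FPKM in HDAC2 knockdown and 15.1 in control (q = 3.63e-14, authors' deposited table). Its centred change was -2.40 ± 0.26.

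The other Egr genes fell by similar amounts. Egr4 (chromosome 6, 85461115 to 85463536) had 6.85 FPKM in HDAC2 knockdown and 19.0 in control (q = 8.23e-07, authors' deposited table), a centred change of -1.79 ± 0.27. Egr1 (chromosome 18, 35020860 to 35024610), also known as Zif268 and widely used as a marker of recently active neurons, had 30.2 FPKM in HDAC2 knockdown and 74.1 in control (q = 9.02e-06, authors' deposited table), a centred change of -1.61 ± 0.26. Egr3 (chromosome 14, 70477251 to 70479964), which muscle spindles need to form, had 9.03 FPKM in HDAC2 knockdown and 20.3 in control (q = 7.80e-05, authors' deposited table), a centred change of -1.49 ± 0.26. The 95% intervals of these 3 centred changes overlapped, from -2.32 at the lowest to -0.97 at the highest.

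Among the nuclear receptors 2 of 3 were called. Nr4a1 (chromosome 15, 101097276 to 101105225), also called Nur77, fell to 13.7 FPKM in HDAC2 knockdown against 34.0 in control (q = 7.94e-07, authors' deposited table), a centred change of -1.63 ± 0.24. Nr4a2 (chromosome 2, 56959636 to 56976414), or Nurr1, which midbrain dopamine neurons need for their development, fell to 1.46 FPKM in HDAC2 knockdown against 2.33 in control (q = 0.0222, authors' deposited table), a centred change of -0.99 ± 0.24. Nr4a3 (chromosome 4, 48064119 to 48096224), or Nor1, had 11.3 FPKM in HDAC2 knockdown and 14.99 in control and was not called (q = 0.227, authors' deposited table). Relative to the median gene Nr4a3 was lower by the centred test (-0.72 ± 0.26), so its call rests on the centring. On the normal reference the upper end of the 95% interval of Npas4 (-2.67) lies below the lower ends of Nr4a2 (-1.47) and Nr4a3 (-1.22). Differences between genes were not tested.

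**Figure D2:**
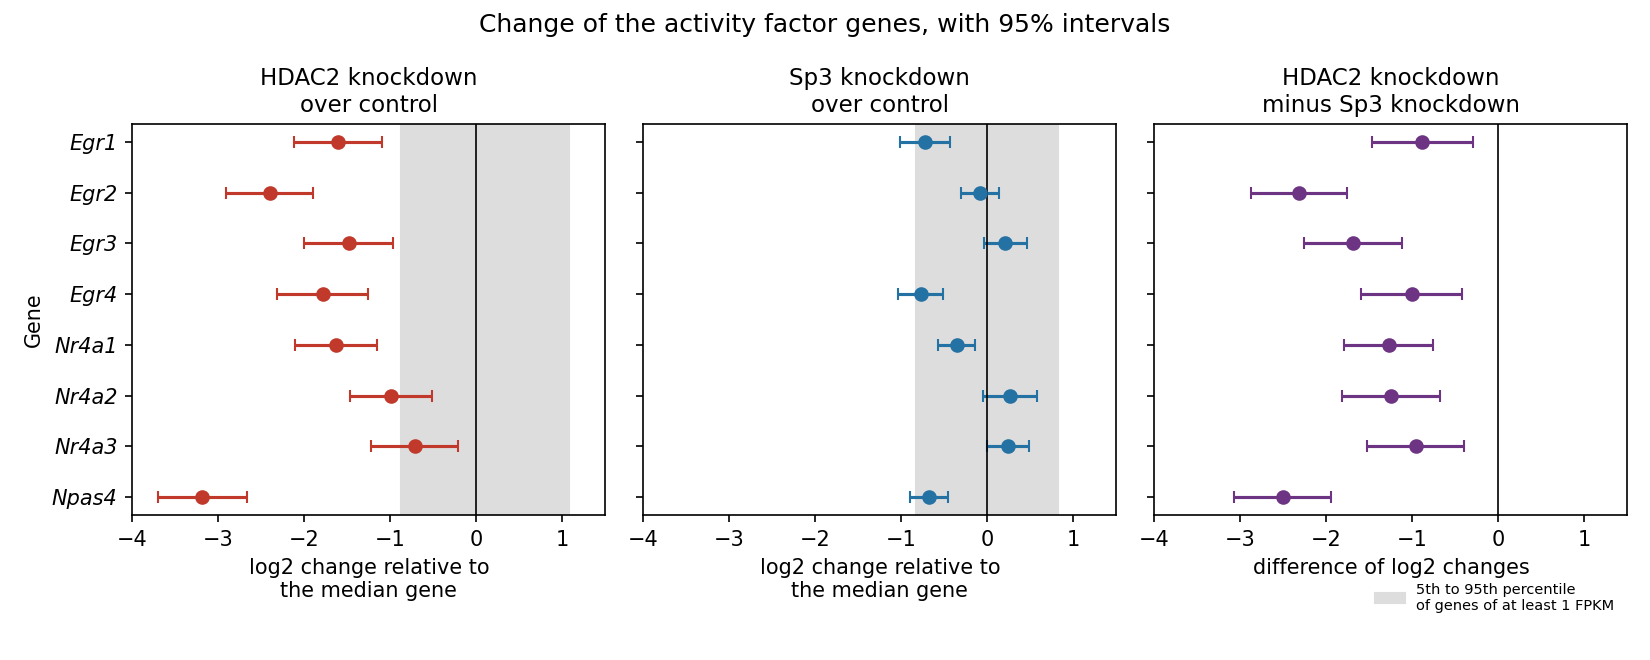
Centred log2 change of each gene with its 95% interval on the normal reference, for HDAC2 knockdown over control, Sp3 knockdown over control, and the difference between both knockdowns. Intervals under a t distribution of 2 degrees of freedom would be wider. Grey bands span the 5th to 95th percentile of genes of at least 1 FPKM. All intervals lie below 0 for HDAC2 knockdown and for the difference, while for Sp3 knockdown those of Egr1, Egr4, Nr4a1 and Npas4 lie below 0.

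In Sp3 knockdown 4 of the 8 genes fell. In the authors' deposited table Egr1, Egr4, Nr4a1 and Npas4 were lower, 0 of the 8 were higher, and Egr2, Egr3, Nr4a2 and Nr4a3 were not called. The share of all tested genes called lower was 26.1% in that table and 17.6% after centring, under which the same 4 of the 8 were lower. The share called higher was 13.2% in that table and 20.2% after centring. The comparison shares its control libraries with that of HDAC2 knockdown.

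Of the 4 that fell, 3 stood at a similar fraction of control. Egr4 had 10.1 FPKM in Sp3 knockdown and 19.0 in control, or 53.2% (q = 4.21e-10, authors' deposited table). Egr1 had 40.9 FPKM in Sp3 knockdown and 74.1 in control, or 55.2% (q = 2.10e-07, authors' deposited table). Npas4 had 16.8 FPKM in Sp3 knockdown and 29.4 in control, or 56.9% (q = 1.90e-11, authors' deposited table). Their centred changes were -0.78 ± 0.13 for Egr4, -0.72 ± 0.15 for Egr1 and -0.68 ± 0.11 for Npas4. Nr4a1 had 24.2 FPKM in Sp3 knockdown and 34.0 in control (q = 5.49e-05, authors' deposited table) and a centred change of -0.36 ± 0.11, which passed.

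The remaining 4 passed neither form of the test. Egr2, the second most reduced in HDAC2 knockdown, had 13.0 FPKM in Sp3 knockdown and 15.1 in control (q = 0.128, authors' deposited table), and its centred change of -0.084 had a 95% interval of -0.31 to 0.14. Egr3 had 21.4 FPKM in Sp3 knockdown and 20.3 in control (q = 0.677, authors' deposited table), with a centred interval of -0.039 to 0.46. Nr4a2 had 2.55 FPKM in Sp3 knockdown and 2.33 in control (q = 0.552, authors' deposited table), with a centred interval of -0.046 to 0.57. Nr4a3 had 16.2 FPKM in Sp3 knockdown and 14.99 in control (q = 0.521, authors' deposited table), with a centred interval of -0.0011 to 0.49. On the normal reference these intervals leave room for a rise of up to about 0.57 on the log2 scale and, in Egr2, a fall of up to 0.31. Wider intervals would leave room for more. On the same reference the intervals of Egr1, Egr4 and Npas4 end at -0.43 or lower. They do not overlap those of Egr2, Egr3, Nr4a2 and Nr4a3, but the genes were sorted by calls on these same values. The interval of Nr4a1 (-0.57 to -0.15), which was also called, overlaps that of Egr2. Differences between genes were not tested.

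Set directly against each other, HDAC2 knockdown was lower than Sp3 knockdown for all 8 genes after centring (adjusted p under 0.05 across 13277 genes, of which 6.87% were lower and 7.86% higher in HDAC2 knockdown). The test divides the difference of the centred log2 changes by the root of their summed squared standard errors. Npas4 had 4.02 FPKM in HDAC2 knockdown and 16.8 in Sp3 knockdown (authors' deposited tables), a difference of centred changes of -2.51 ± 0.29. Egr2 had 3.56 FPKM in HDAC2 knockdown and 13.0 in Sp3 knockdown (authors' deposited tables), a difference of -2.32 ± 0.28. Egr3 followed with -1.69 ± 0.29, and the other 5 lay between -1.27 and -0.89. Without centring the differences of Egr1 (-0.44 ± 0.30), Egr4 (-0.56 ± 0.30) and Nr4a3 (-0.51 ± 0.29) no longer passed, and 5 of the 8 did.

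Other activity-induced transcription factors were lower wherever the authors called them. Of 16 tested, 5 were lower and 0 higher in HDAC2 knockdown by the authors' deposited q-values, beside 3.6% and 24.6% of all genes tested. After centring they were 7 and 0 (median -0.60), beside 7.59% and 10.2% of all genes. In Sp3 knockdown 11 of 16 were lower and 0 higher in the authors' deposited table, beside 26.1% and 13.2% of all genes tested. After centring they were 9 and 1 there (median -0.45), beside 17.6% and 20.2% of all genes. Fosb, an AP-1 subunit, had 0.953 FPKM in HDAC2 knockdown, 2.71 in Sp3 knockdown and 7.32 in control in the authors' deposited tables, with centred changes of -3.26 ± 0.36 in HDAC2 knockdown and -1.30 ± 0.17 in Sp3 knockdown. Junb had 23.6 FPKM in HDAC2 knockdown, 33.9 in Sp3 knockdown and 66.7 in control (authors' deposited tables), with centred changes of -1.82 ± 0.24 in HDAC2 knockdown and -0.85 ± 0.12 in Sp3 knockdown. Fos, the founding AP-1 subunit, had 32.3 FPKM in HDAC2 knockdown, 28.2 in Sp3 knockdown and 59.8 in control (authors' deposited tables). Its centred change was -1.20 ± 0.24 in HDAC2 knockdown and -0.95 ± 0.12 in Sp3 knockdown, and the difference between them did not pass its test. Jun fell in Sp3 knockdown (-1.09 ± 0.12), and its centred change in HDAC2 knockdown was -0.54 ± 0.26, which did not pass.

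Effector genes, the synaptic and signalling genes that such factors help to induce, were mostly lower where called in HDAC2 knockdown. Of 22 tested, 6 were lower and 1 higher in HDAC2 knockdown by the authors' deposited q-values, beside 3.6% and 24.6% of all genes tested. After centring 11 were lower and 0 higher (median -0.77), beside 7.59% and 10.2% of all genes. In Sp3 knockdown 7 of 22 were lower and 5 higher in the authors' deposited table, beside 26.1% and 13.2% of all genes tested. After centring they were again 7 and 5 (median -0.10), beside 17.6% and 20.2% of all genes. Arc, which drives removal of AMPA receptors from synapses, had 8.07 FPKM in HDAC2 knockdown, 23.5 in Sp3 knockdown and 49.2 in control (authors' deposited tables). The phosphatase gene Dusp1, which switches off MAP kinases, fell in both (-1.65 ± 0.24 in HDAC2 knockdown and -0.61 ± 0.12 in Sp3 knockdown). The neurotrophin gene Bdnf, a known target of Npas4, had 16.6 FPKM in HDAC2 knockdown, 32.6 in Sp3 knockdown and 22.8 in control (authors' deposited tables). Bdnf thus fell in HDAC2 knockdown (-0.78 ± 0.097) and rose in Sp3 knockdown (0.65 ± 0.060), where Npas4 itself fell. Cyr61, a secreted matrix protein gene, fell in Sp3 knockdown (-0.72 ± 0.11). In HDAC2 knockdown Cyr61 was lower by the centred test (-0.82 ± 0.23) with a q-value of 0.0761 in the authors' deposited table.

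**Figure D3:**
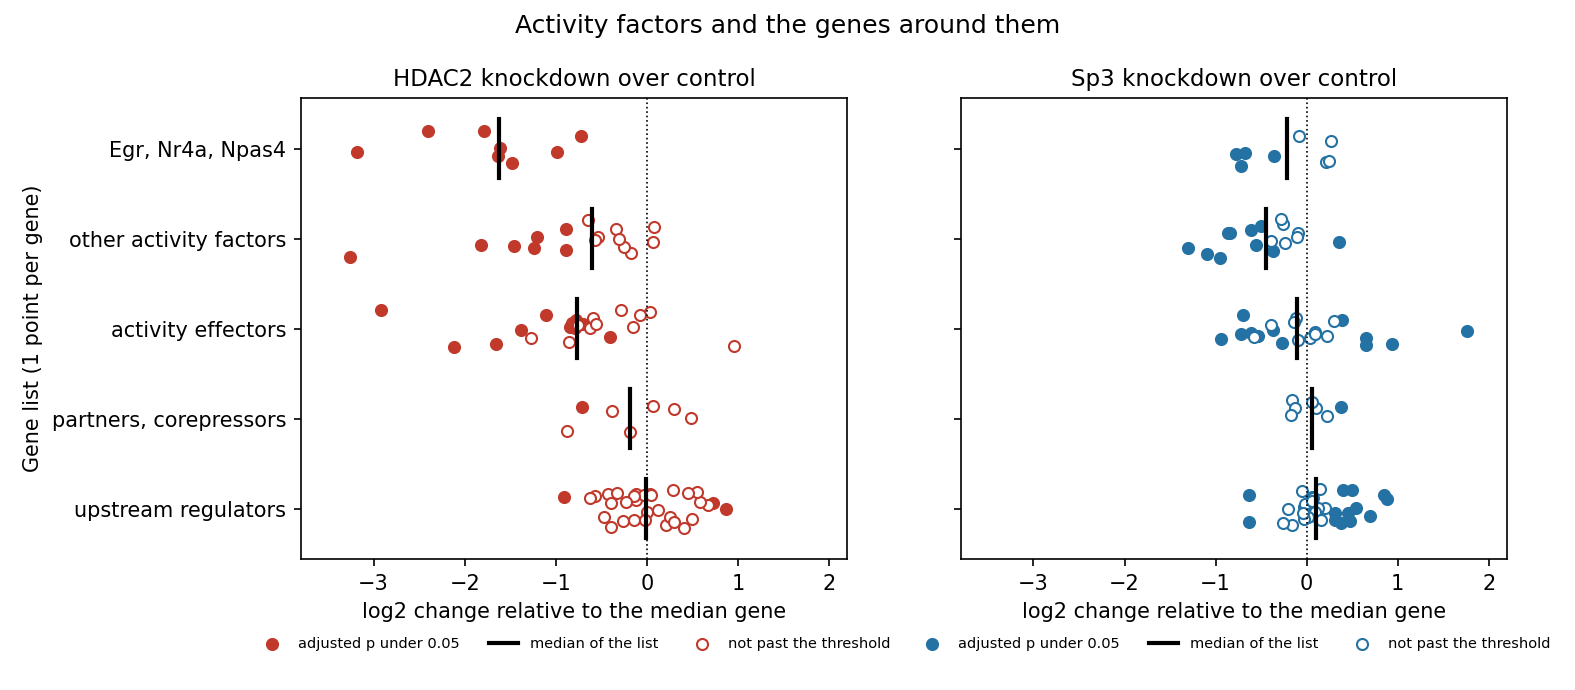
Centred log2 change of every gene with a standard error in 5 lists, for HDAC2 knockdown and Sp3 knockdown over control, filled where the adjusted p is under 0.05, with a bar at each list's median. The Egr, Nr4a and Npas4 median is -1.62 in HDAC2 knockdown and -0.22 in Sp3 knockdown, while the median of the upstream regulators is -0.0036 in HDAC2 knockdown and 0.10 in Sp3 knockdown.

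Of 32 kinases and resident factors upstream of these genes, 1 was lower and 8 higher in HDAC2 knockdown by the authors' deposited q-values, beside 3.6% and 24.6% of all genes tested. After centring 1 was lower and 2 higher, beside 7.59% and 10.2% of all genes. In Sp3 knockdown 5 were lower and 7 higher by the authors' deposited q-values, beside 26.1% and 13.2% of all genes tested. After centring 2 were lower and 11 higher there, beside 17.6% and 20.2% of all genes. The 1 lower in HDAC2 knockdown, a count near the share over all genes, was Srf (q = 0.0445, authors' deposited table). It was named here after its value was seen. Srf had 6.59 FPKM in HDAC2 knockdown, 9.25 in Sp3 knockdown and 9.91 in control (authors' deposited tables), with a centred change of -0.91 ± 0.24 in HDAC2 knockdown and 0.032 ± 0.11 in Sp3 knockdown. The MAP kinase gene Mapk3 (ERK1) rose in both (0.87 ± 0.26 in HDAC2 knockdown and 0.48 ± 0.11 in Sp3 knockdown). Camkk1, a kinase that activates CaM kinases, rose in Sp3 knockdown (0.69 ± 0.12), and Crtc3, a CREB coactivator gene, fell there (-0.64 ± 0.15).

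Among 7 partners and corepressors, 1 was lower and 2 higher in HDAC2 knockdown and 1 lower and 0 higher in Sp3 knockdown by the authors' deposited q-values. After centring the counts were 1 and 0 in HDAC2 knockdown and 0 and 1 in Sp3 knockdown. Over all genes tested the authors' deposited q-values called 3.6% lower and 24.6% higher in HDAC2 knockdown and 26.1% lower and 13.2% higher in Sp3 knockdown, and with lists this short nothing is read from the counts of this list or the next. The Egr corepressor genes Nab1 (q = 0.00434) and Nab2 (q = 0.0498) were called higher in HDAC2 knockdown by the authors' deposited q-values, but their centred changes of 0.49 ± 0.24 and 0.29 ± 0.25 did not pass. Rxrb, which encodes a retinoid X receptor, the kind of receptor that Nr4a1 and Nr4a2 can pair with, fell in HDAC2 knockdown (-0.71 ± 0.11). Of 8 other bHLH-PAS genes tested, relatives of Npas4, 0 were lower and 1 higher in HDAC2 knockdown, and 3 lower and 1 higher in Sp3 knockdown, by the authors' deposited q-values. After centring the counts were 1 and 1 in HDAC2 knockdown and 2 and 2 in Sp3 knockdown. Npas1 was higher in both (1.26 ± 0.41 in HDAC2 knockdown and 1.05 ± 0.37 in Sp3 knockdown), with 0.979 FPKM in control (authors' deposited table), whereas Npas3 (-0.63 ± 0.12) and Hif1a (-0.53 ± 0.13) fell in Sp3 knockdown. Npas2 was called lower in Sp3 knockdown by the authors' deposited q-values (q = 0.0113) and did not pass after centring (-0.37 ± 0.16).

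The genes whose pair of centred changes lay nearest to the median pair of the 8 (-1.62 in HDAC2 knockdown and -0.22 in Sp3 knockdown) were sought among 12908 genes of at least 1 FPKM in control, over the 3 group values. They were 4933408N05Rik, Acan, Trank1, Snora75 and Arl6ip1, at distances of 0.074 to 0.11 log2 units. Of these Acan, which encodes the perineuronal net protein aggrecan, had standard errors as small as those of the 8 genes, with -1.57 ± 0.25 in HDAC2 knockdown and -0.28 ± 0.11 in Sp3 knockdown. The nearest single genes were Kcns1 to Egr1, Hdac2 to Egr2, Mas1 to Egr3, Gdf10 to Egr4, Gm5820 to Nr4a1, Lypd6b to Nr4a2, Zyg11b to Nr4a3 and 1700021C14Rik to Npas4. Hdac2 is itself the target in HDAC2 knockdown. The distance was 0.25 for Npas4 and 0.16 for Egr2 and at most 0.085 for the other 6. Each distance was below the standard error of the matched gene in HDAC2 knockdown, which was 1.82 for 1700021C14Rik and 0.63 for Gm5820.

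The cell makeup of the cultures was read from marker genes in the same values. In bulk samples fewer cells of a type and less RNA per cell cannot be told apart. Summed over 9 neuron markers the level was 1066 FPKM in HDAC2 knockdown, 1293 in Sp3 knockdown and 999 in control, while all genes of the table together stood at 129% of control in HDAC2 knockdown and 89.0% in Sp3 knockdown. Slc17a7 alone had 275 FPKM in HDAC2 knockdown, 219 in Sp3 knockdown and 184 in control (authors' deposited tables). It was not called in HDAC2 knockdown (q = 0.52, authors' deposited table), so 1 uncalled gene carries much of the rise in the neuron sum. The median centred change of the 9 was -0.32 in HDAC2 knockdown and 0.50 in Sp3 knockdown. Of the 9 markers 1 was lower and 0 higher in HDAC2 knockdown by the authors' deposited q-values, beside 3.6% and 24.6% of all genes tested. In Sp3 knockdown 1 was lower and 4 higher, beside 26.1% and 13.2%. After centring 2 were lower and 0 higher in HDAC2 knockdown, beside 7.59% and 10.2% of all genes. In Sp3 knockdown 0 were then lower and 4 higher, beside 17.6% and 20.2%. Slc17a6, a vesicular glutamate transporter gene, fell in HDAC2 knockdown (-1.50 ± 0.24), and Snap25 (0.78 ± 0.21) rose in Sp3 knockdown. The GABA synthesis gene Gad2 was lower in HDAC2 knockdown by the centred test (-0.80 ± 0.24), with q = 0.103 in the authors' deposited table, and rose in Sp3 knockdown (0.65 ± 0.10). Gad1, the other GABA synthesis gene of the list, went the other way in HDAC2 knockdown (0.45 ± 0.32), which did not pass. Gad1 rose in Sp3 knockdown (0.44 ± 0.11). The centred change of Rbfox3 (NeuN) was -0.32 ± 0.19 in HDAC2 knockdown and -0.21 ± 0.095 in Sp3 knockdown, neither past the threshold, although the authors' deposited table called it lower in Sp3 knockdown (q = 0.00237).

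Markers of glia differed between the groups. Summed over 10 astrocyte markers the level was 1765 FPKM in HDAC2 knockdown, 526 in Sp3 knockdown and 618 in control. Slc1a3, a glutamate transporter gene, alone had 721 FPKM in HDAC2 knockdown, 212 in Sp3 knockdown and 173 in control in the authors' deposited tables, and was not called in HDAC2 knockdown (q = 0.282, centred change 1.74 ± 1.46), so that 1 uncalled gene carries much of the rise in this sum. Of those tested, 6 of 9 were higher and 0 lower in HDAC2 knockdown, and 0 of 10 higher and 6 lower in Sp3 knockdown, by the authors' deposited q-values, beside 24.6% of all genes higher in HDAC2 knockdown and 26.1% lower in Sp3 knockdown. After centring 5 were higher and 0 lower in HDAC2 knockdown, and 2 higher and 6 lower in Sp3 knockdown. The 2 higher in Sp3 knockdown, named after their values were seen, were Aqp4 (0.39 ± 0.11) and Aldh1l1 (0.31 ± 0.10). The 6 lower there included Gfap (-0.73 ± 0.12), S100b (-0.82 ± 0.33) and Sox9 (-0.89 ± 0.13). The 5 higher in HDAC2 knockdown included Gfap (3.01 ± 0.37), Aqp4 (2.24 ± 0.27) and S100b (2.11 ± 0.29). Sox9 (0.42 ± 0.24) did not pass there after centring. The sum over 11 oligodendrocyte lineage markers was 428 FPKM in HDAC2 knockdown, 130 in Sp3 knockdown and 225 in control. Of those tested, 8 of 11 were higher and 0 lower in HDAC2 knockdown, and 0 of 9 higher and 7 lower in Sp3 knockdown, by the authors' deposited q-values (7 and 0, and 0 and 7, after centring). Over all genes 10.2% were higher in HDAC2 knockdown and 17.6% lower in Sp3 knockdown after centring. Microglia markers summed to 2.37 FPKM in HDAC2 knockdown, 1.74 in Sp3 knockdown and 1.95 in control, with Tmem119 listed at 0 in every group and 0 calls in the 1 marker tested. Endothelial and pericyte markers summed to 5.45 FPKM in HDAC2 knockdown, 2.85 in Sp3 knockdown and 2.89 in control. Of the 3 tested by the authors Kdr and Rgs5 were called higher in HDAC2 knockdown and Pdgfrb lower in Sp3 knockdown. The part of these marker differences in the levels of the 8 genes was not tested.

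**Figure D4:**
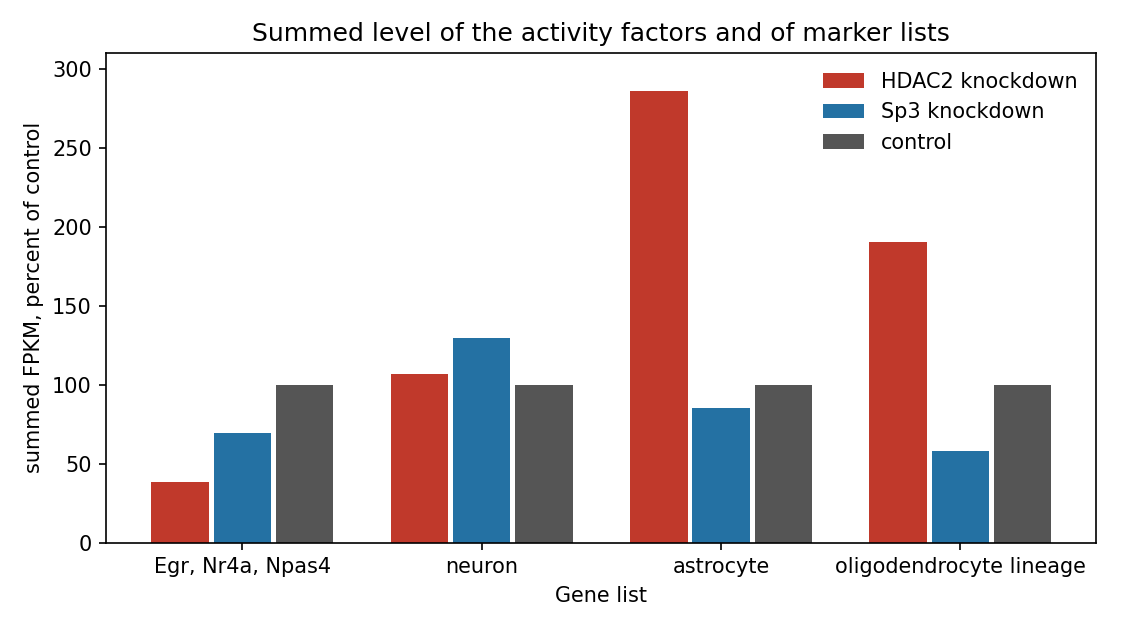
Summed FPKM of the 8 genes and of 3 marker lists, as percent of control, in HDAC2 knockdown, Sp3 knockdown and control. The 8 genes are at 38.3% in HDAC2 knockdown and 69.3% in Sp3 knockdown. The neuron markers are at 107% in HDAC2 knockdown and 129% in Sp3 knockdown. Slc17a7, not called in HDAC2 knockdown, is the highest neuron marker there. The median centred change of the neuron markers in HDAC2 knockdown is -0.32. The astrocyte markers are at 286% in HDAC2 knockdown, with Slc1a3 the highest of them, and 85.1% in Sp3 knockdown, and the oligodendrocyte lineage markers at 190% in HDAC2 knockdown and 57.8% in Sp3 knockdown.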

How the data were processed

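RNA from 6 libraries, 2 per group, was sequenced by the authors. The mouse build mm9 and the tools Cuffdiff, Bowtie and TopHat are listed, with no role given, in the submitters' processing notes; no source used here gives versions, annotation or strand setting. The deposited tables, which the authors made for either knockdown over control, hold 1 FPKM value per gene and group; both libraries of a group enter it. Per the file headers each gene also has a p-value and q-value, a log2 fold change and a test statistic. The test statistic, a score whose sign is opposite to the fold change in the deposited tables, behaves as a normal deviate: two-sided normal p-values recomputed here differed by at most 2.79e-06 from those deposited. Control FPKM was identical in both tables for 100% of genes. Depth per library is unknown, so intervals rest on the authors' test.

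Genes with status OK were taken as tested, 13569 in the HDAC2 and 13619 in the Sp3 table, and as changed at q under 0.05. Standard errors are the log2 fold change over the sign-reversed statistic; those over 5 and folds against 0 were left out, leaving 13481 and 13539 genes. Fold changes were centred on the median of genes of at least 1 FPKM in either group and tested as described, in Python 3.11.15 with scipy 1.17.1. These steps were tested on simulated data drawn with normal noise of the same standard errors. Such data cannot test whether the normal reference suits 2 libraries per group. The 8 genes, the lists and the tests were chosen with earlier results of these data known. Named genes are the 8, the targets, up to 4 genes per list with the smallest p among those called, and the nearest genes by centred changes. Not all are printed. Srf, Aldh1l1, Slc1a3, Slc17a7, Gad1 and Tmem119 fall outside this rule and were named after their values were seen. Lists were described by counts and medians, with no list test. Of the list genes, Map2 was not analysed here. A gene of the upstream list is not reported here by name. Alternatives varied thresholds, scaling, filters, pseudocounts and the reference distribution.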

Additional observations from a re-analysis of the deposited data

Results flagged for a closer look

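The effect of HDAC2 knockdown differed from that of Sp3 knockdown for all 8 genes by the test of the difference itself, with adjusted p under 0.05 across 13277 genes after centring. The centred log2 change in HDAC2 knockdown minus that in Sp3 knockdown was -2.51 for Npas4, -2.32 for Egr2, -1.69 for Egr3 and -1.27 for Nr4a1. It was -1.25 for Nr4a2, -1.01 for Egr4, -0.96 for Nr4a3 and -0.89 for Egr1. Both effects use the same control value, which cancels in the difference, while its error enters both standard errors.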

How the results depend on the processing

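No paired analysis was possible because the deposited tables hold 1 value per group and none per library, and for the same reason no replicate could be left out. With a t distribution of 2 degrees of freedom in place of the normal one, 0 of the 8 genes were called in HDAC2 knockdown, 0 in Sp3 knockdown and 0 in the difference, where no gene of any table was called after adjustment (0 of 13481, 13539 and 13277). At an unadjusted p under 0.05 the t distribution gave 6, 3 and 5 of the 8, while the normal test after adjustment gave the 8, 4 and 8 reported. A minimum of 1 log2 unit left 0 of the 4 calls in Sp3 knockdown and 6 of the 7 in HDAC2 knockdown in the authors' deposited tables. Without centring 5 of the 8 differences between knockdowns passed, as named in the results. Every other count, under other q thresholds, FPKM filters and upper-quartile scaling, stayed within 1.5 times the value reported and had 0 genes higher. Of 64 single changes recomputed without centring, with upper-quartile scaling or with pseudocounts of 0.1 or 1 FPKM, 62 stayed on the same side of the threshold and 0 reversed. The other 2 were Nr4a3 in HDAC2 knockdown without centring (-0.40) and with a pseudocount of 1 FPKM (-0.65), which no longer passed. FPKM keeps no read count, so which low values rest on few reads cannot be said.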
